A study of Mus musculus with 2 samples.

Results

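Cells survive noise in part through enzymes that remove reactive oxygen species, and 31 genes of that defence are described here: superoxide dismutases, catalase, glutathione and thioredoxin enzymes, glutathione transferases, NRF2 with genes it is known to induce, and the metallothioneins. They were chosen by symbol, and all 31 were found among the 32285 genes of both libraries. Cochlear tissue of CBA/CaJ mice aged 4 to 6 weeks was collected 2 days after exposure to 105 dB noise of 1 to 20 kHz for 2 h. Ears treated with an adeno-associated virus carrying Isl1, a LIM-homeodomain transcription factor, before the noise formed 1 single-cell library (AAV-Isl1 plus noise), and the untreated other ears of the same mice formed the second (noise only). Each library pooled 5 mice, so no difference between libraries could be tested against the spread between animals. All mice were exposed to noise, so there is no unexposed level to set these values against. The promoter that drives Isl1 is not given in the sources used here.

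Superoxide dismutases turn superoxide into hydrogen peroxide, which catalase, glutathione peroxidases and peroxiredoxins then reduce. Glutathione peroxidases spend glutathione, and most peroxiredoxins draw on thioredoxin, so both depend on enzymes that make or recycle those thiols. Loud noise is known to raise reactive oxygen species in the cochlea, where hair cells and the stria vascularis, the ion-pumping epithelium of the lateral wall, are regarded as exposed sites.

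After filtering, 18657 noise-only and 21767 AAV-Isl1 plus noise barcodes were kept, with medians of 1046 and 1084 UMIs (unique molecular identifiers, each tagging 1 captured transcript). Clustering gave 21 classes with at least 90 barcodes in each library. Of these, 15 were named from markers or a leading gene and 6 are called by their leading genes. Although the samples are labelled sensory epithelium, hair cells made up 91 and 330 of the barcodes, against 6590 and 4437 in the Schwann or satellite glia. Isl1 was at 48.7 CPM (UMIs of a gene per 1000000 UMIs of its class) in the hair cells of the noise-only library (8 UMIs, 95% Poisson interval 21.0 to 96.0) and at 557 in those of the AAV-Isl1 plus noise library (220 UMIs in 34 of 330 barcodes, 486 to 636). The libraries shared 145 barcode sequences. The summed level of 4 hemoglobin genes was higher in the AAV-Isl1 plus noise library in 17 of 21 classes (medians 148 and 418 CPM), and that of 12 neutrophil markers in 20 of 21 (medians 9.004 and 269). Their part in the results below was not tested.

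Levels below are in CPM, given for the noise-only library first. Such counts come from transcript ends and are not scaled by transcript length, so they are set side by side between classes for 1 gene. All intervals are 95% and cover counting error only. In droplet data free RNA also gives every class a low level of genes made elsewhere.

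The 31 genes were spread over the classes rather than held by 1 cell type. Among the compared classes of the noise-only library, neurons had the highest level of 5 of them, stria intermediate cells and oligodendrocytes of 4 each, and hair cells of 1. For 22 of 31 genes the same class was highest in both libraries.

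**Figure D1:**
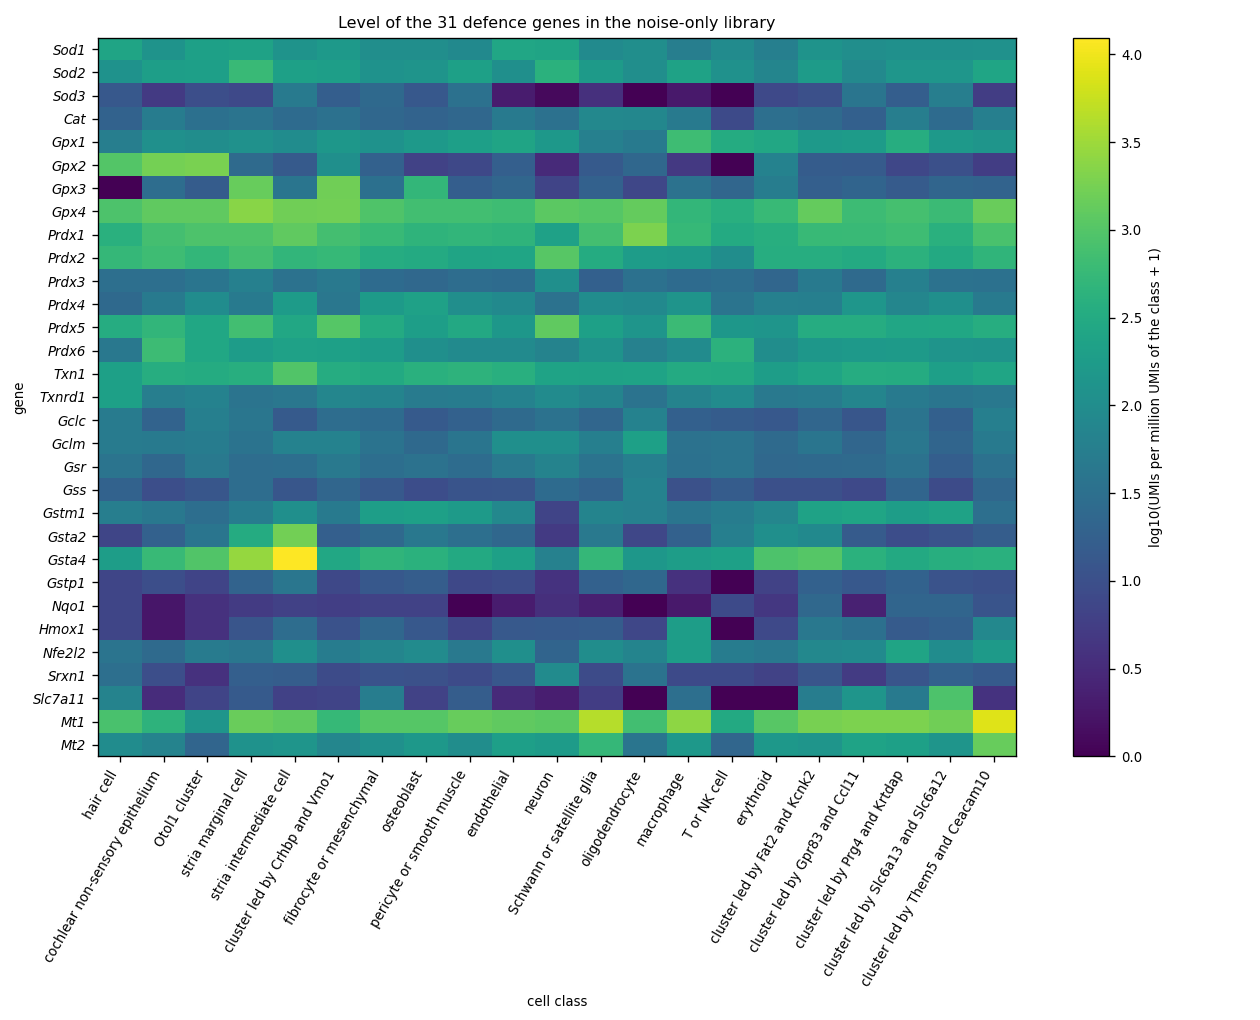
Level of each of the 31 genes (rows) in each of the 21 classes (columns) of the noise-only library, as log10 of CPM plus 1. Gsta4 and Gsta2 stand out in stria intermediate cells, Gpx2 in the sensory epithelium and Gpx3 in stria marginal cells and the cluster led by Crhbp and Vmo1, while Gpx4 and Prdx1 are spread over all classes.

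Hair cells carried Gpx2, Gpx4, Txnrd1 and Sod1 and little of several other defence genes. Gpx2, a glutathione peroxidase otherwise known from gut epithelium, was at 993 (847 to 1158) CPM in noise only and 868 (779 to 965) in AAV-Isl1 plus noise. Gpx4, which reduces lipid peroxides in membranes, was at 908 and 886 CPM, and Mt1 at 841 and 724. Txnrd1, cytosolic thioredoxin reductase, was highest in hair cells of all 21 classes, at 213 (149 to 297) and 203 (161 to 252) CPM. Neurons came next for Txnrd1 with 94.5 (87.8 to 102) and 95.3 (89.3 to 102), so the intervals of these classes do not overlap in either library. Sod1, the cytosolic copper-zinc dismutase, was at 244 (174 to 332) CPM in noise-only hair cells, within the intervals of neurons (246 [235 to 258]) and endothelial cells (265 [243 to 289]).

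Prdx6, Gpx3 and Prdx4 were scarce in hair cells. Prdx6, a peroxiredoxin that acts on phospholipid peroxides, was at 42.7 (17.1 to 87.9) and 32.9 (17.5 to 56.3) CPM there, the lowest of 21 classes in both libraries, against 640 and 487 in the cochlear non-sensory epithelium. Gpx3, the secreted glutathione peroxidase, had 0 UMIs among 164117 in noise-only hair cells, which allows up to 18.3 CPM, and 18 UMIs (45.6 CPM) in the other library. Gsta4 was at 189 and 327 CPM and Gsta2 at 6.09 and 32.9. Prdx4 gave 4 UMIs and 10 UMIs, and Nqo1 1 UMI and 0 UMIs.

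The hair cell level of Gpx2 can be set beside that of the cochlear non-sensory epithelium. The 25 markers of cochlear non-sensory epithelium summed in hair cells to 18.0% and 17.6% of their level in that epithelium. Gpx2 was at 57.6% and 65.5% of its epithelial level and Prdx6 at 6.67% and 6.76%. Gpx2 also differed between the clusters of that epithelium, from 1027 CPM (led by Rubie) to 3416 (led by Entpd8) in noise only. The part of epithelial RNA in the hair cell levels was not tested. For shares at equal depth, barcodes with under 1000 UMIs were left out and the others thinned to 1000 UMIs. Gpx2 was then seen in 53 of 86 (61.6%) and 128 of 228 (56.1%) hair cells, in 299 of 517 (57.8%) and 165 of 304 (54.3%) cochlear non-sensory cells and in 3 of 756 (0.397%) and 8 of 1439 (0.556%) neurons. Unthinned shares are over all barcodes of a class, so they cover more cells. They were 70.3% and 63.0% in hair cells, 63.1% and 57.0% in cochlear non-sensory cells, and 1.55% and 2.21% in neurons. Median depth before thinning was 1726 and 1134.5 UMIs in hair cells and 10269.5 and 6529.5 in neurons.

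The stria vascularis carried a different set in each of its cell types. Intermediate cells, the pigment-bearing layer, held Gsta4 at 12446 (12304 to 12590) CPM in noise only and 10241 (10117 to 10366) in AAV-Isl1 plus noise, against 189 and 327 in hair cells. Gsta4 encodes a glutathione transferase that removes 4-hydroxynonenal, a product of lipid peroxidation, and at 1000 UMIs it was seen in 877 of 879 (99.8%) and 1183 of 1190 (99.4%) intermediate cells. Of all Gsta4 UMIs in the noise-only classes, 68.7% were in intermediate cells, and of Gsta2 UMIs 78.5%. Gsta2 was at 1659 and 1422 CPM there, but the alpha-class transferases are similar in sequence and counting could split reads between them. Txn1, thioredoxin itself, was also highest in intermediate cells (977 and 928 CPM).

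Marginal cells, which face the endolymph and secrete potassium, had the highest levels of Gpx4 (2319 and 2140 CPM) and of Sod2, the mitochondrial manganese dismutase (603 [555 to 653] and 544 [501 to 590]). Neurons were second for Sod2 at 415 (400 to 429) and 392 (379 to 404), below the marginal-cell intervals. Gpx3 was at 1412 (1339 to 1488) and 1331 (1263 to 1402) CPM in marginal cells and at 38.0 and 33.9 in intermediate cells, so the secreted peroxidase separated these stria layers. Hair cells had less Sod2 than marginal cells, 122 and 129 CPM.

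Gpx3 was shared with a cluster led by Crhbp and Vmo1, at 1612 (1536 to 1691) and 1401 (1335 to 1469) CPM, and osteoblasts came next (522 and 437). The next class in noise only, erythroid cells, had 53.1 CPM. By class, Gpx2 was highest in the Otol1 cluster (1846 [1705 to 1995] and 2031 [1908 to 2158] CPM). Next came the cochlear non-sensory epithelium (1725 [1654 to 1798] and 1325 [1242 to 1412]) and then hair cells. Within the Otol1 cluster, Gpx2 was at 2162 and 2778 CPM in the part led by Cpa6 and at 1182 and 1358 in that led by Otol1. Within the epithelium it ranged from 1027 and 773 in the part led by Rubie to 3416 and 3320 in that led by Entpd8. Otol1 encodes an inner ear matrix protein. Gpx2 thus lay in these 3 classes, where Gpx3 was at 14.5, 28.2 and 0 CPM in noise only. Gpx1, the ubiquitous cytosolic form, was highest among compared classes in noise-only macrophages, at 673 CPM, and reached 911 in the other library.

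**Figure D2:**
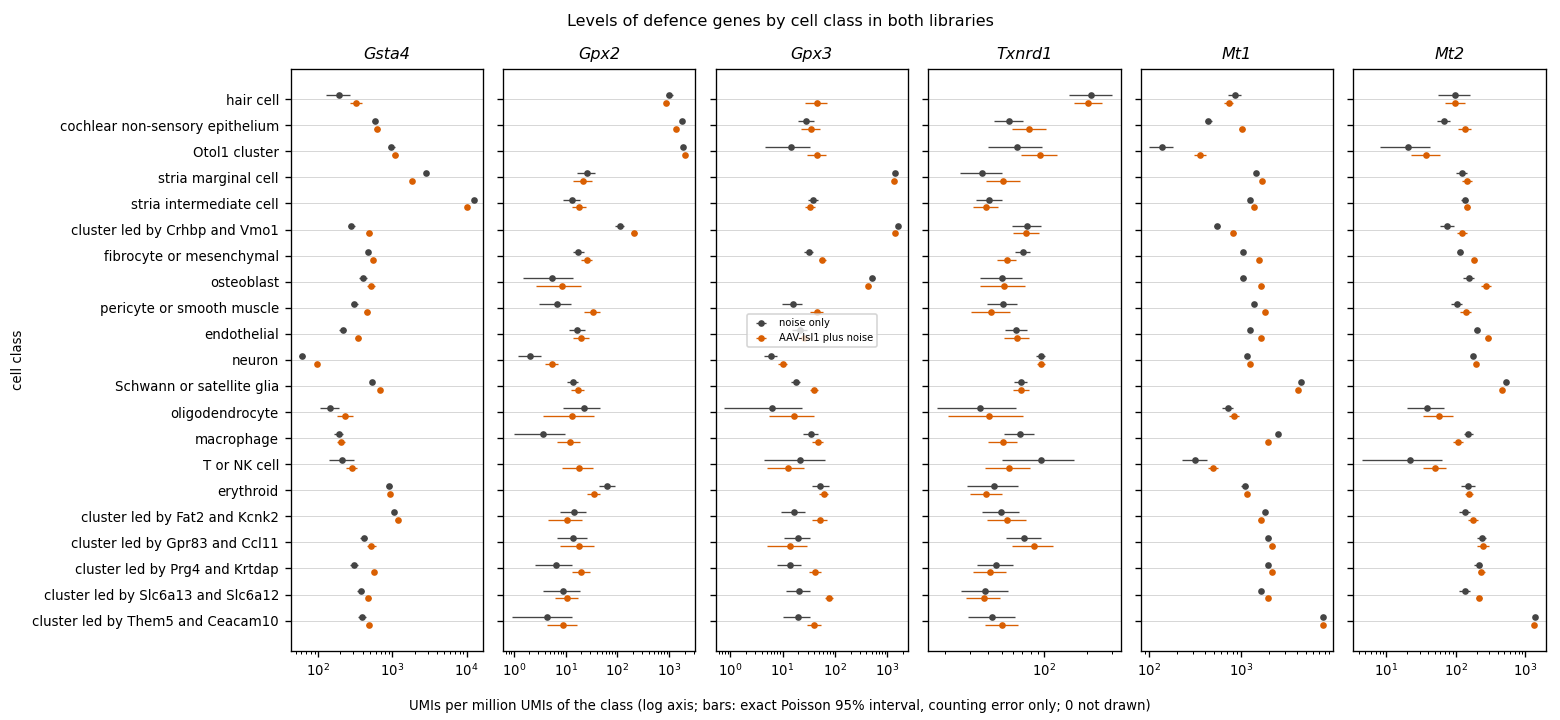
Levels of Gsta4, Gpx2, Gpx3, Txnrd1, Mt1 and Mt2 in each class, in CPM on log axes, with dark points for noise only, orange points for AAV-Isl1 plus noise, and bars for the exact Poisson 95% interval. Gsta4 peaks in stria intermediate cells (12446 and 10241 CPM), and the libraries lie apart for Mt1 in the cochlear non-sensory epithelium (437 and 1021 CPM) and the Otol1 cluster (137 and 353).

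Among the compared classes, neurons had the highest noise-only level of 3 peroxiredoxins that work through thioredoxin. Prdx2, cytosolic, was at 1062 and 1063 CPM in neurons, Prdx5 at 1227 and 1200, and Prdx3, the mitochondrial form, at 107 and 106. In AAV-Isl1 plus noise, erythroid cells were highest for Prdx2, at 1087 CPM. Srxn1, sulfiredoxin, which repairs over-oxidised peroxiredoxins, was at 93.8 and 96.8 CPM in neurons, and 72.3% of its noise-only UMIs lay in them. The second class for Srxn1, oligodendrocytes, had 35.3 and 23.6. Neurons were in contrast the lowest class for Gsta4 (61.5 CPM), Gsta2 (3.91), Gstm1 (6.00), Prdx1 (220) and Nfe2l2 (19.6) in the noise-only library.

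Oligodendrocytes had the highest levels of Prdx1 (1932 and 1807 CPM) and of enzymes of glutathione synthesis. Gclm, the modifier subunit of glutamate-cysteine ligase, was at 215 (167 to 273) and 159 (117 to 211) CPM there, ahead of neurons (110 and 105). Gss, glutathione synthetase, was at 64.2 (39.2 to 99.1) and 64.2 (38.6 to 100) CPM. Gclc, the catalytic subunit, was low throughout: its highest level was 64.2 (39.2 to 99.1) in noise-only oligodendrocytes, which overlaps the interval of hair cells (48.7 [21.0 to 96.0]). Gsr, which recycles oxidised glutathione, was highest in noise-only neurons (67.8 CPM, 61.8 in the other library). Oligodendrocytes rest on 91 and 140 barcodes.

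Slc7a11, the cystine importer that feeds glutathione synthesis, was held by a cluster led by Slc6a13 and Slc6a12, at 888 (823 to 956) and 642 (601 to 683) CPM. A cluster led by Gpr83 and Ccl11 followed with 137 and 190. Noise-only neurons had 1.17 CPM of Slc7a11, Schwann or satellite glia 4.55 and cochlear non-sensory epithelium 2.35. Gstm1 was at 259 and 263 CPM in the Gpr83 cluster and at 230 and 184 in the Slc6a13 cluster. A cluster led by Fat2 and Kcnk2 had as much Gstm1 as the latter in noise only, 229.7 CPM. Sod3, the extracellular dismutase, was low in every class and highest in the same Slc6a13 cluster in noise only (55.3 [40.0 to 74.5] CPM), with stria intermediate cells at 48.3 (39.8 to 58.1). Catalase was highest in Schwann or satellite glia, at 80.1 and 76.3 CPM.

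Nfe2l2, which encodes the transcription factor NRF2, was highest in noise only in the cluster led by Prg4 and Krtdap, at 248 (219 to 279) CPM. Macrophages had 192 (166 to 220), an interval that overlaps it, and were at the same level as this cluster in the other library (199 and 199). Hmox1, heme oxygenase, was highest in macrophages (191 [166 to 219] and 188 [166 to 211] CPM), with the Them5 and Ceacam10 cluster second (81.8 and 60.4). Nqo1, a quinone reductase often used as a readout of NRF2, did not exceed 33.9 CPM in any class of either library. In noise-only hair cells Nfe2l2 gave 6 UMIs, Hmox1 1 and Srxn1 5.

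Among classes too small to compare, neutrophils (24 and 459 barcodes) held Prdx5 at 2653 (2267 to 3086) and 2226 (2122 to 2334) CPM and Gpx1 at 963 (737 to 1237) and 731 (672 to 794). Ciliated or middle ear epithelium (49 and 30 barcodes) had Gstm1 at 422 (294 to 588) and 330 (171 to 577). All 3 noise-only levels exceed that of the highest compared class.

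Between the libraries, most gene and class pairs lay near a ratio of 1. A pair was measured when it had at least 50 UMIs over both libraries. It was called when the ratio of AAV-Isl1 plus noise over noise only was at least 1.5 or at most 0.667 with an interval that excludes 1. Of 458 measured pairs, 49 were called higher and 10 lower, 10.7% and 2.18%. By the same rule 4.56% of the 116033 pairs of any gene and class were higher and 2.44% lower.

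Many of the higher calls were in classes where the gene is scarce. In 28 of the 49, the level was under 10% of that of the highest class in the same library, and 28 of the 63 measured pairs under that line were called higher (44.4%) and 2 lower (3.17%), beside 25.1% and 2.71% of all gene and class pairs under it. At or above the line 21 of 395 pairs were higher and 8 lower, 5.32% and 2.03%, beside 3.4% and 2.42% of all gene and class pairs over the same line. Gpx3, Gsta4 and Gsta2 supplied 8, 6 and 7 of the higher calls, and none of those 21 reached 10% of the gene's highest class. Gpx3 in neurons, at 6.00 and 10.1 CPM, was at 0.724% of the highest class. In the 3 classes that held it, Gpx3 gave ratios of 0.87 (0.81 to 0.93), 0.94 (0.87 to 1.02) and 0.84 (0.71 to 0.98). Free RNA was not measured apart from the cells, and its part in the low-level calls was not tested. Of the 59 called pairs, 11 kept their call under every alternative processing tried and 48 lost it under at least 1, of which 8 changed direction.

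**Figure D3:**
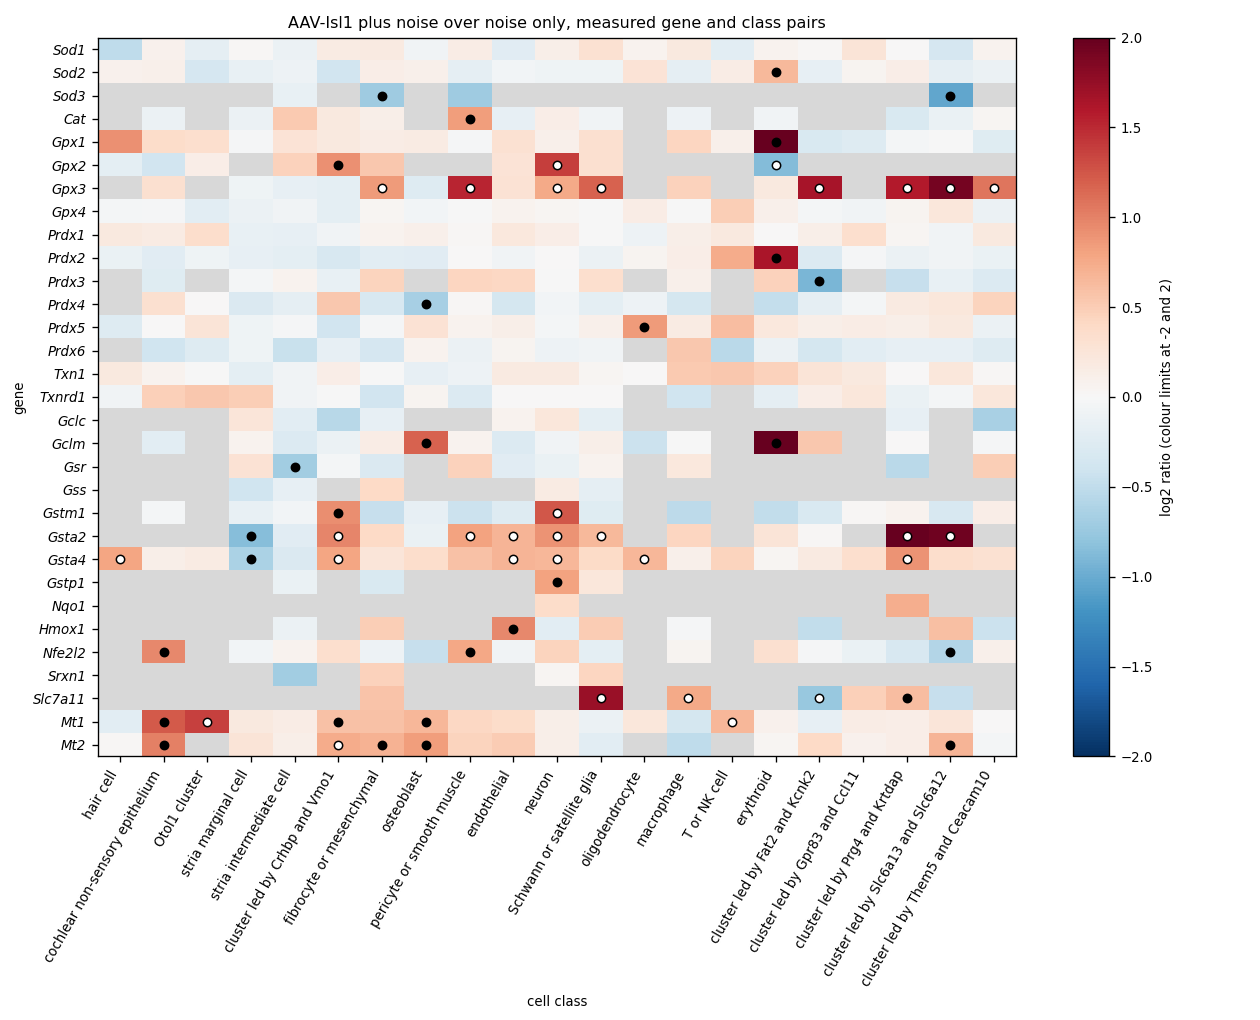
Log2 ratio of AAV-Isl1 plus noise over noise only for measured pairs of gene (rows) and class (columns); grey pairs had under 50 UMIs, and colours stop at -2 and 2. Circles mark called pairs, filled where the level reached 10% of the highest class (21 higher, 8 lower) and open where it did not (28 higher, 2 lower). Gpx3, Gsta2, Gsta4, Mt1 and Mt2 carry 8, 7, 6, 5 and 5 of the higher calls.

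Hair cells had few calls. Of 13 measured genes, 1 was called higher and 0 lower, where 3.55% of all genes measured in hair cells were higher and 2.57% lower. The median log2 ratio of the 13 was -0.04, and 0.00 over all genes of the class. Gpx2 gave a ratio of 0.87 (0.72 to 1.06), Gpx4 0.98 (0.80 to 1.19), Txnrd1 0.95 (0.63 to 1.46) and Mt1 0.86 (0.70 to 1.06). The called gene was Gsta4, 189 and 327 CPM, a ratio of 1.73 (1.16 to 2.65), at 3.19% of its intermediate-cell level. The summed neutrophil markers in this class were 12.2 and 1043 CPM and the hemoglobin genes 73.1 and 585. The interval of Gpx1, 1.89 (0.91 to 4.43), shows how wide a change this depth leaves undetected.

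In the stria the called genes were lower with AAV-Isl1. In marginal cells Gsta4 was at 2793 and 1811 CPM, a ratio of 0.65 (0.61 to 0.69), and Gsta2 at 329 and 183, a ratio of 0.56 (0.46 to 0.67). None of 24 measured genes was higher there and these 2 were lower, beside 4.3% and 1.39% of all genes. The summed markers of intermediate cells moved the same way in marginal cells, 4099 and 2904 CPM, which is 13.3% and 9.78% of their level in intermediate cells. Gsta4 in marginal cells stood at 22.4% and 17.7% of its intermediate-cell level. The part of intermediate-cell RNA in these ratios was not tested. In intermediate cells 22 of 29 measured genes had a ratio under 1 and the median log2 ratio was -0.12, against 0.01 over all genes. That median was -0.057 with a stricter barcode filter and 0.013 with barcodes thinned to 1000 UMIs. A single gene passed the rule there, Gsr, at 28.6 and 17.8 CPM and a ratio of 0.62 (0.42 to 0.92), which made 0 of 29 higher (beside 3.28%) and 1 lower (beside 1.12%). Gsta4 gave 0.82 (0.81 to 0.84) in intermediate cells.

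In the erythroid class 4 genes were higher and 1 lower of 22 measured, beside 10.6% and 6.47% of all its genes. Gpx1 was at 280 and 1383 CPM, a ratio of 4.95 (4.21 to 5.85), Prdx2 at 350 and 1087, a ratio of 3.102 (2.68 to 3.61), and Gclm at 24.8 and 152, a ratio of 6.14 (3.59 to 11.39). Sod2 gave 1.57 (1.12 to 2.27). Both peroxidases are known as major antioxidants of red cells. Hemoglobin was alike in the class, 445466 and 430496 CPM, but 2 other erythroid markers were not: Klf1 was at 1 and 79 UMIs and Car1 at 0 and 160 UMIs. Markers of other cells also differed in the class: the summed neutrophil markers were at 5.31 and 768 CPM, those of ciliated or middle ear epithelium at 9724 and 1061, of osteoblasts at 1506 and 381 and of endothelial cells at 1111 and 520. Their part in these ratios was not tested. Gpx2 was called lower there (0.55 [0.35 to 0.85]) while 1 barcode gave 18 of the 36 UMIs in noise only, and its ratio is 2.18 without the 5 barcodes richest in it in each library.

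The cluster led by Crhbp and Vmo1 had 6 of 24 measured genes higher and 0 lower, beside 6.49% and 3.88% of all genes. Gpx2 was at 110 and 208 CPM, a ratio of 1.89 (1.51 to 2.38), and Gstm1 at 45.4 and 86.4, a ratio of 1.90 (1.34 to 2.75). Mt1 gave 1.504 (1.35 to 1.67). That call, on the 1.5-fold line, was kept in 4 of 9 alternatives (1.39 to 1.53). The others, Gsta2, Gsta4 and Mt2, were under 10% of their highest class. The summed markers of stria intermediate cells, which lead Gsta4 and Gsta2, were at 182 and 696 CPM in this cluster, and those of neurons at 118 and 426. Their part was not tested.

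In neurons, 6 of 29 measured genes were higher and 0 lower, beside 3.2% and 0.455% of all genes. Every one of the 6 (Gpx2, Gpx3, Gstm1, Gsta2, Gsta4 and Gstp1) is scarce in neurons, the most abundant being Gsta4 at 61.5 and 97.2 CPM. The summed intermediate-cell markers in neurons were at 100.4 and 163 CPM, and Gstp1 gave 0.788 after thinning. The genes that neurons carry had ratios near 1: Prdx2 gave 1.00 (0.97 to 1.03), Prdx5 0.98 (0.95 to 1.01), Prdx3 1.00 (0.91 to 1.09) and Srxn1 1.03 (0.94 to 1.14). Schwann or satellite glia had 3 of 29 higher (Gpx3, Gsta2 and Slc7a11) and 0 lower, beside 3.3% and 1.1%. Gsta2 turned to 0.846 in the glia after thinning. Slc7a11 was there at 4.55 and 15.0 CPM.

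Remaining calls were scattered. Slc7a11 was higher in macrophages (30.7 and 51.8 CPM) and in the Prg4 cluster (46.5 and 71.4) and lower in the cluster led by Fat2 and Kcnk2 (54.4 and 32.1). Where Slc7a11 is abundant, in the Slc6a13 cluster, its ratio was 0.72 (0.65 to 0.80), short of the rule. Sod3 was lower in that cluster (0.48 [0.31 to 0.76]), and Nfe2l2 was lower in it too (0.67 [0.49 to 0.91]). Thinning put Sod3 at 1.002 in the cluster, and Nfe2l2 kept its call there in 2 of 7 alternatives (0.569 to 0.802). Sod3 was also lower in the fibrocyte or mesenchymal class, called fibrocytes below (0.61 [0.41 to 0.88]). That call was kept in 5 of 9 alternatives (0.433 to 0.725). The part of this class led by Dpep1 gave 0.66 (0.43 to 1.008) for Sod3, an interval that includes 1. Nfe2l2 was higher in cochlear non-sensory epithelium (25.1 and 49.1 CPM, 1.96 [1.18 to 3.26]) and in the pericyte or smooth muscle class (1.71 [1.20 to 2.45]). In the part of the latter class led by Steap4, Nfe2l2 gave 1.38 (0.90 to 2.10), short of the rule. Catalase was higher in the whole pericyte or smooth muscle class (1.79 [1.09 to 2.98]). Hmox1 was higher in endothelial cells (13.01 and 25.4 CPM, 1.95 [1.15 to 3.36]), Prdx5 in oligodendrocytes (1.81 [1.23 to 2.70]) and Gclm in osteoblasts (2.26 [1.24 to 4.27]). After thinning Hmox1 gave 0.974 in endothelial cells, and Gclm kept its call in 3 of 9 alternatives (1.48 to 2.43). Prdx4, a peroxiredoxin of the endoplasmic reticulum, was lower in osteoblasts, 217 and 137 CPM (0.63 [0.48 to 0.83]), the class where it was highest in noise only, and Prdx3 was lower in the Fat2 cluster (0.53 [0.29 to 0.94]), where it turned to 1.32 after thinning. Sod1, Gpx4, Prdx1, Prdx6, Txn1, Txnrd1, Gclc, Gss, Srxn1 and Nqo1 were called in 0 classes. Of these, Gclc was measured in only 9 of the 21 classes, Gss in 5, Srxn1 in 4 and Nqo1 in 2.

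Metallothioneins are small cysteine-rich proteins that bind zinc and copper and scavenge radicals, and their genes answer to metals through the transcription factor MTF1, which binds metal response elements. Mt1 (ENSMUSG00000031765) lies on chromosome 8 from 94179082 to 94180327 and Mt2 (ENSMUSG00000031762) from 94172664 to 94173568, both on the plus strand (GRCm38, GENCODE vM21), so they are neighbours. Their promoter windows are shown because the values of both genes are set side by side below. They are RefSeq windows of GRCm38.p6, 250 bases before to 50 after the annotated start, at chr8:94178839-94179138 for Mt1 and chr8:94172368-94172667 for Mt2, plus strand. Capitals mark the core of the metal response element, TGCACNC or TGCGCNC, on either strand.
Mt1: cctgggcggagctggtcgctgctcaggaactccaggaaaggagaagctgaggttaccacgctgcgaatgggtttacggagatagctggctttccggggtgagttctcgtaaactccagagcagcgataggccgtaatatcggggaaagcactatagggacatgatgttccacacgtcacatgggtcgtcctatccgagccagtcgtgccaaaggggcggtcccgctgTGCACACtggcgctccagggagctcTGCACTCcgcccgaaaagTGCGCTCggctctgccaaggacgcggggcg
Mt2: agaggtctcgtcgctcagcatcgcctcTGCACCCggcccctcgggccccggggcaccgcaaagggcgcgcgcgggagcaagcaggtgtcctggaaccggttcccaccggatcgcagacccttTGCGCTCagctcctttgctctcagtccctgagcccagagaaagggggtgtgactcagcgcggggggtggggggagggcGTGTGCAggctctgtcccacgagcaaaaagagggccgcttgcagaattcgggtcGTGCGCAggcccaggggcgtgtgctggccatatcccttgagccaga
The core occurs 3 times in the Mt1 window and 4 times in the Mt2 window. At least 3 were found in 1.97% and at least 4 in 0.517% of the 32851 windows of the same length, and at least 1 in 25.7%. Of the 25 defence genes with a window in this table, 7 hold the metal response element core and 7 the antioxidant response element core TGACNNNGC, which is in 12.4% of all windows. A match describes the letters and not a bound site.

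Mt1 was abundant in most classes. The cluster led by Them5 and Ceacam10 had 7721 (7512 to 7934) and 7751 (7588 to 7917) CPM, Schwann or satellite glia 4434 and 4072, and macrophages 2468 and 1943. Mt2 followed at a lower level with the same 2 leading classes, 1373 and 1336 CPM in the Them5 cluster and 531 and 458 in the glia. Stria marginal cells (1449 and 1660 CPM) and intermediate cells (1244 and 1372) had more Mt1 than hair cells (841 and 724). The cochlear non-sensory epithelium had less in noise only, 437 CPM, and the Otol1 cluster the least of all, 137.

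That low epithelial level is where the libraries differed most for the metallothioneins. In cochlear non-sensory epithelium Mt1 was at 437 (402 to 475) CPM in noise only and 1021 (948 to 1098) in AAV-Isl1 plus noise, a ratio of 2.33 (2.09 to 2.61). Mt2 was at 66.6 and 135, a ratio of 2.02 (1.49 to 2.74). With Nfe2l2 these made 3 of 21 measured genes higher and 0 lower in the class, beside 5.76% and 2.65% of all genes. At 1000 UMIs per barcode Mt1 was seen in 121 of 517 (23.4%) and 137 of 304 (45.1%) of the cells that reach this depth. Over all barcodes of the class, without thinning, it was seen in 29.4% and 45.1%. In hair cells 40 of 86 (46.5%) and 103 of 228 (45.2%) had Mt1 at that depth. Over the 9 alternative settings the Mt1 ratio in this epithelium ranged from 1.64 to 2.43. The Mt1 call was kept in all 9, that of Mt2 in 6 (1.19 to 2.19) and that of Nfe2l2 in 5 (1.59 to 1.97).

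The epithelium consists of 4 clusters whose mix differed between libraries. The cluster led by Sfn, which had the most Mt1 (1803 and 2216 CPM), held 82 of 772 noise-only and 161 of 546 AAV-Isl1 plus noise barcodes. Within it the Mt1 ratio was 1.23 (1.06 to 1.42). Within the cluster led by Epyc it was 1.89 (1.28 to 2.77), in that led by Rubie 1.83 (1.39 to 2.40) and in that led by Entpd8 1.42 (0.93 to 2.13). All 4 were above 1 and below the ratio of the whole class, and 1 interval includes 1. Markers of other cells moved with it: in this class the summed markers of Schwann or satellite glia, where Mt1 is abundant, were at 2597 and 4910 CPM, and the neutrophil markers at 13.3 and 185. The part of glial RNA in the Mt1 difference was not tested. Within the Sfn cluster Mt2 gave 1.54 (1.01 to 2.42), below its ratio in the whole class.

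The Otol1 cluster gave 137 (100 to 182) and 353 (303 to 408) CPM of Mt1, a ratio of 2.58 (1.86 to 3.64), the 1 call among its 14 measured genes (0 lower), beside 6.18% higher and 6.32% lower of all genes. Its part led by Cpa6 gave 4.05 (2.55 to 6.69) and its part led by Otol1 1.43 (0.90 to 2.36). At 1000 UMIs Mt1 was seen in 7 of 107 (6.54%) and 39 of 167 (23.4%) of its barcodes that reach this depth. Unthinned and over all its barcodes the shares were 15.9% and 27.1%. In the AAV-Isl1 plus noise library this level was 4.55% of that of the Them5 cluster.

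**Figure D4:**
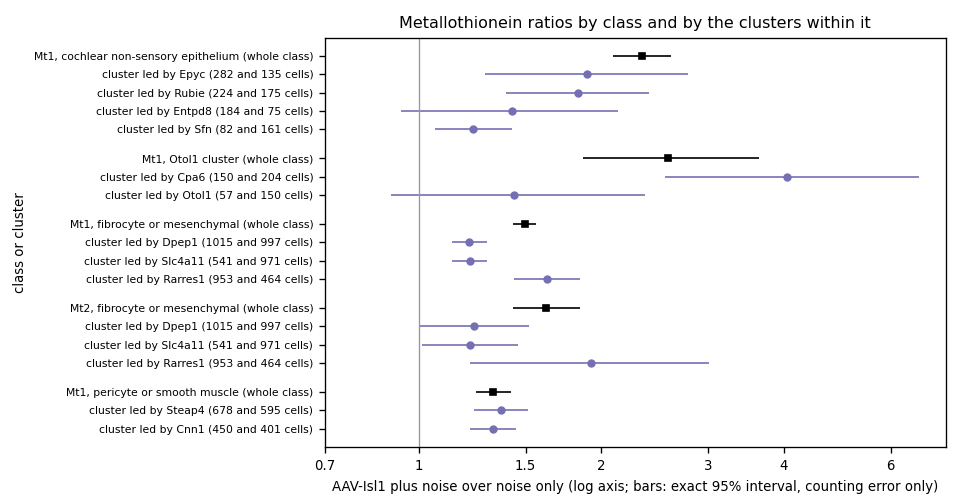
Ratio of AAV-Isl1 plus noise over noise only for Mt1 or Mt2 in whole classes (black squares) and in the clusters that make them up (purple circles, barcodes of each library in brackets), on a log axis with exact 95% intervals. In cochlear non-sensory epithelium the clusters give 1.23 to 1.89 and the whole class 2.33, and in fibrocytes Mt2 gives 1.21 to 1.92 and the whole class 1.62.

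Among other classes Mt1 was higher in osteoblasts, 1036 and 1638 CPM, a ratio of 1.58 (1.44 to 1.74), and so was Mt2, 153 and 273, a ratio of 1.78 (1.39 to 2.28). Osteoblasts had 3 of 19 measured genes higher and 1 lower, beside 4.6% and 3.01%. In fibrocytes Mt2 was higher (114 and 185 CPM, 1.62 [1.43 to 1.84]), while Mt1 missed the 1.5-fold line (1029 and 1537 CPM, 1.49 [1.43 to 1.56]). Fibrocytes had 2 of 30 genes higher and 1 lower, beside 5.0% and 3.38%. Within the 3 fibrocyte clusters the Mt2 ratio was 1.23 (1.00 to 1.52), 1.21 (1.01 to 1.46) and 1.92 (1.21 to 3.004), so 1 of the 3 passes the rule. The summed markers of Schwann or satellite glia, second in Mt2, were at 1628 and 2964 CPM in fibrocytes, at 1665 and 4173 in osteoblasts and at 1497 and 3222 in the Slc6a13 cluster, and their part was not tested. Mt2 was also higher in the Slc6a13 cluster (1.61 [1.29 to 2.03]). In the T or NK class Mt1 gave 1.59 (1.15 to 2.24), a call that reverses when doublets are kept. Within its 3 clusters the ratio was 0.964 (0.509 to 1.93), 1.03 (0.523 to 2.20) and 1.05 (0.650 to 1.82), all below the rule. The last of them, led by Ms4a1 and Iglc2, had the most Mt1 (1113 and 1174 CPM) and held 11 of 120 and 119 of 528 barcodes, and the summed markers of B or plasma cells in the class were at 231 and 4324 CPM. Macrophages stood on the other side, 2468 and 1943 CPM of Mt1 and a ratio of 0.79 (0.75 to 0.83), and 0.71 (0.56 to 0.89) for Mt2, neither past the rule. In the Them5 cluster, where both are most abundant, Mt1 gave 1.00 (0.97 to 1.04) and Mt2 0.97 (0.90 to 1.06). Mt1 was measured in 21 classes and higher in 5, Mt2 in 18 and higher in 5.

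Wider lists of the pathway were tallied over the same classes by the same calling rule, beside the 4.56% higher and 2.44% lower of all gene and class pairs. Of 333 measured pairs of redoxin and repair partners 11 were higher (3.303%) and 3 lower. Other glutathione transferases and turnover genes gave 6 higher (3.75%) and 4 lower of 160, and NRF2 partners with NADPH supply 15 (5.32%) and 5 of 282, all near that background. Superoxide producers gave 5 higher (14.3%) and 0 lower of 35, and the housekeeping reference 0 and 0 of 167. Metal and iron handling gave 21 higher (19.3%) and 1 lower of 109, of which Mt3, a metallothionein best known from brain, was 13. Mt3 was at 10545 and 11015 CPM in the Them5 cluster (1.04 [1.01 to 1.08]) and at 259 and 738 in cochlear non-sensory epithelium (2.85 [2.48 to 3.28]). Its 13 higher classes had at most 738 CPM in either library, so Mt3, like Gpx3 and Gsta2, was called in classes where it is scarce.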

How the data were processed

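Each of the 2 libraries was made from pooled cochlear tissue of 5 mice with a 3-prime droplet kit, per the labels' protocols. The authors deposited gene-by-barcode UMI counts (whole numbers, not normalized); per the file headers and the submitters' processing notes they come from Cell Ranger 5.0.1 with the mm10 (GRCm38) build, and Seurat 3.2.2 is named without a role. The labels state about 1600 loaded cells, while the files hold 21068 and 24209 barcodes with 38330528 and 40268563 UMIs; the cause of this gap was not tested.

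Barcodes were kept when they had 300 genes or more and no more than 20% of UMIs from mitochondrial genes (19953 and 22672). Doublets were scored with Scrublet as implemented in scanpy 1.11.5, and those above a score of 0.194 were removed, 1296 and 905; this is the automatic threshold of the noise-only library, used in both because the other library's own threshold called 0. Counts were scaled to 10000 per barcode and log-transformed, 3135 variable genes (7 of the 31 among them) gave 50 components, and Leiden clustering (leidenalg 0.10.2, 15 neighbours, resolution 1.0) gave 39 clusters. A cluster took a class name from at least 3 fixed markers at least 4-fold above other cells and detected in 10% or more of the cluster, with at least 1 among its top 10 genes. A name from 8 or more markers without that last condition, the second split at resolution 0.5 of epithelial and T or NK clusters, and the Otol1 class were chosen after seeing the clusters. Classes are thus rebuilt here and may differ from the study's.

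Counts were summed per class and library. There is no test: 1 library per group has no replicates, and barcodes are not replicates. Levels have exact Poisson intervals, ratios exact conditional binomial intervals and shares exact Clopper-Pearson intervals, all 95% (scipy 1.17.1). These steps were tested on simulated data. A count of 0 allows 3 counts. Classes were compared with at least 90 barcodes per library; 100 was planned, and the limit was lowered after class sizes were seen, so that hair cells (91) could be described. The line at 10% of the highest class, and ranking classes only among those compared, were also chosen after seeing the data. The members and lists were chosen with earlier results of these data known. Genes were named as follows: all members past the calling rule, at most 8 per class, with each member's leading and lowest classes. Closely related genes (alpha, mu and pi transferases, Mt1 and Mt2) are uncertain where reads could fit several. Alternatives covered filters, depth, doublets, clustering, scaling, single barcodes and calling limits.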

Additional observations from a re-analysis of the deposited data

How the results depend on the processing

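No paired analysis was possible because both ears of the same 5 mice were pooled by treatment into 1 library each, and no label ties a barcode to its mouse. Of the recomputed ratios of called pairs, 474 stayed within their interval on the same side of 1, 36 moved and 8 reversed. With doublets kept, Mt1 in T or NK cells gave 0.813 and Gsta4 in oligodendrocytes 0.712. Thinned to 1000 UMIs, Gsta2 in Schwann or satellite glia gave 0.846, Prdx3 in the Fat2 cluster 1.32, Sod3 in the Slc6a13 cluster 1.00, Hmox1 in endothelial cells 0.974 and Gstp1 in neurons 0.788. Gpx2 in erythroid cells gave 2.18 without the 5 barcodes richest in the gene. In the main clustering a cluster of 11 and 119 barcodes led by Ms4a1 and Iglc2 counted as T or NK. A cluster of 11 and 117 barcodes with Iglc2 and Ms4a1 among its top genes was named B or plasma cell with doublets kept. Keeping doublets and leaving out the richest barcodes change by construction which barcodes enter. The cause of the reversals was not tested.

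Against 49 pairs higher and 10 lower, 25 were higher after thinning and 21 were higher where only levels of at least 10% of the highest class count, an alternative added after seeing the data. Pairs lower numbered 6 with doublets kept, 5 at clustering resolution 0.5 and 6 without the 5 richest barcodes. A minimum of 200 UMIs, which tests fewer pairs, left 21 higher and 3 lower. The looser fold limit tried gave 77 and 25, and a 2-fold limit 18 and 1. The median log2 ratio of the members in stria intermediate cells went from -0.12 to -0.057 with the stricter barcode filter and to 0.013 after thinning. Thinning also gave 0.15 in the Prg4 cluster and 0.33 in osteoblasts, and T or NK cells gave 0.93 without the richest barcodes. Doublets kept left no match for the Slc6a13 cluster, and resolution 0.5 none for the Fat2, Gpr83 and Slc6a13 clusters. Low depth limits the small classes: 47.6% and 45.1% of kept barcodes had under 1000 UMIs.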

Other observations

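The genes that make superoxide were examined beside its scavengers. Cybb, the catalytic subunit of the phagocyte NADPH oxidase, was at 568 and 532 CPM in macrophages, and its partner Ncf1 at 135 and 136. Noxo1, an organiser of the NOX1 and NOX3 oxidases, was highest in the cluster led by Crhbp and Vmo1 at 41.5 and 30.7 CPM, the cluster that also led Gpx3. Of iron storage genes, Fth1, the ferritin heavy chain, was highest in oligodendrocytes (27265 and 25630 CPM) and next in stria intermediate cells (22745 and 20761). Selenop, the selenium carrier that supplies glutathione peroxidases, was highest in stria intermediate cells at 4318 and 3868 CPM. Ratios of these genes in these classes lay between 0.74 and 1.01.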
